A study of Mus musculus with 2 samples.

Results

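The expression of 10 genes of the Notch pathway and of the secretory lineages of the gut was measured in adult mouse duodenum, out of 43346 genes in the deposited tables: the receptor Notch1, its ligands Dll1 and Dll4, the target Hes1, and the transcription factors Atoh1, Gfi1, Neurog3, Neurod1, Pax6 and Nkx2-2. They were chosen by name, and each matched 1 row of each gene table through its GENCODE identifier, so that 10 of 10 were measured and 10 of 10 passed the filter of a mean count of at least 10. The study has 1 group of 2 libraries, given here as replicate 2 and replicate 1 after the numbers in the labels. Both hold polyadenylated RNA from the duodenum of C57BL/6J mice aged 8 weeks, with RNA of male and female littermates pooled and no treatment or allele named. Both carry the same donor entry and different tissue-sample entries, so technical variation may add to their spread, and all comparisons are between these 2 libraries rather than between conditions.

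Notch signalling passes between touching cells: a Delta-like or Jagged ligand on one cell binds a Notch receptor on its neighbour, and the freed intracellular part of the receptor joins RBPJ in the nucleus. In the crypts of the intestine the pathway turns on Hes1, a repressor that holds down Atoh1, and cells that keep Atoh1 enter the secretory lineages of goblet, Paneth, tuft and enteroendocrine cells. Such cells display Delta-like ligands and so keep their neighbours from the same fate. Gfi1 acts downstream of Atoh1 in goblet and Paneth cells, and Neurog3 starts the enteroendocrine programme that Neurod1, Pax6 and Nkx2-2 carry on.

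The 10 genes lay over a wide span of levels. In TPM, the authors' measure of abundance per transcript length and per library total, the mean of both libraries was 391.3 ± 133.2 for Hes1 and 54.41 ± 20.89 for Dll1 (SD, n = 2 libraries). A cluster of 3 genes followed, with 12.12 ± 3.67 TPM for Atoh1, 11.68 ± 3.55 TPM for Notch1 and 10.64 ± 2.128 TPM for Dll4, and the ranges of neighbours in this order overlapped. Gfi1 stood below them at 7.465 ± 0.1344 TPM. Nkx2-2 (4.185 ± 3.359 TPM) and Neurog3 (3.755 ± 2.213 TPM) overlapped each other, and Neurod1 (2.00 ± 0.198 TPM) and Pax6 (0.85 ± 0.1273 TPM) were lowest. The gap between Neurog3 and Neurod1 was narrow, at 2.19 TPM for the lower Neurog3 value and 2.14 TPM for the higher Neurod1 value. The 4 endocrine factors were thus the 4 lowest of the 10 genes, and the order is a description with no test. In bulk tissue, fewer cells of a type and less RNA per cell cannot be told apart.

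**Figure D1:**
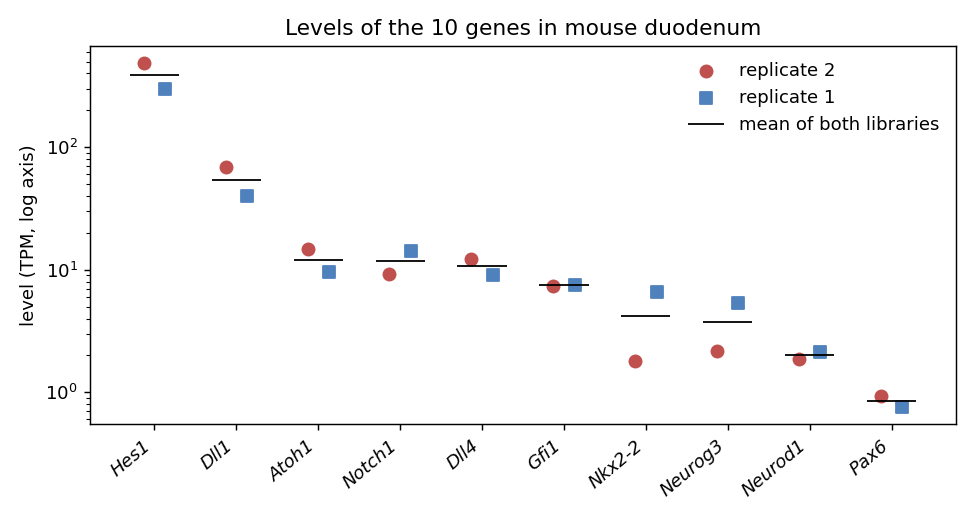
Level of each gene in TPM on a log axis, with replicate 2 as circles, replicate 1 as squares and the mean as a bar. Hes1 stands highest at 485.43 and 297.08 TPM, and Pax6 lowest at 0.94 and 0.76 TPM.

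For the comparison between libraries, expected counts (fragments per gene, with shared fragments divided by the authors' quantifier) were scaled by TMM, a factor that sets the bulk of genes equal. Each gene had an exact two-sided binomial test with Benjamini-Hochberg adjustment over 15921 genes. The test covers counting error only and not other variation between libraries. Of all genes tested, 74.95% had an adjusted p under 0.05, so a small p is common here. A gene was called where the adjusted p was under 0.05 and the scaled counts differed at least 2-fold. Of the 10 genes 4 were called, Dll1 and Dll4 higher in replicate 2 and Nkx2-2 and Neurog3 higher in replicate 1. Of all genes tested, 26.1% were called, with 11.5% higher in replicate 2 and 14.6% higher in replicate 1. Calls were thus common across the tissue, and the count of 4 of 10 is not read as a property of these genes. The median log2 ratio of CPM (a count per library size, set to the same total) plus 0.5, replicate 2 over replicate 1, was 0.36 over the 10 genes and -0.04 over all genes tested. The median size of the log2 ratio over all genes, sign set aside, was 0.47.

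**Figure D2:**
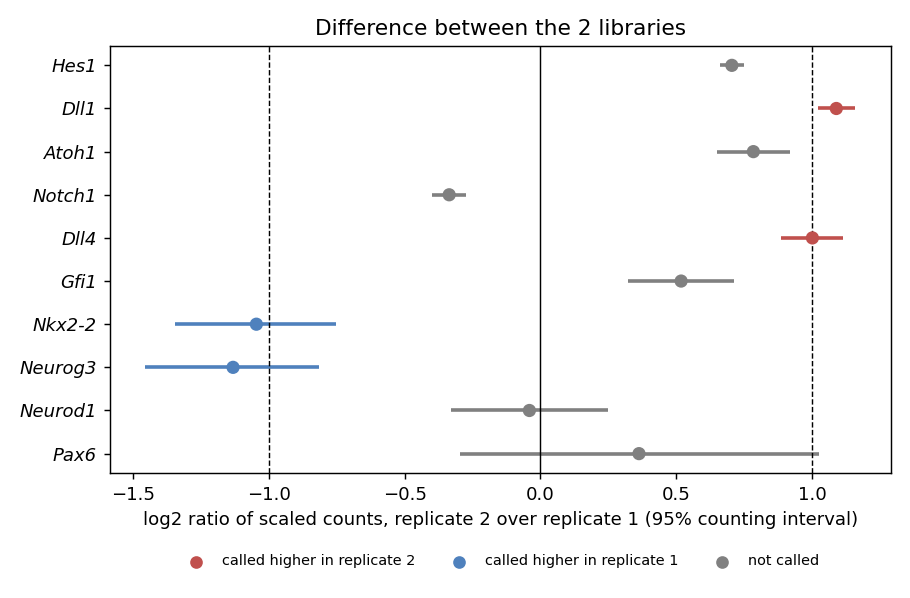
Ratio of scaled counts of each gene on a log2 axis, replicate 2 over replicate 1, with 95% counting intervals and dashed lines at 2-fold. Dll1 and Dll4 lie at or right of the upper line, Nkx2-2 and Neurog3 left of the lower line, and the intervals of Neurod1 and Pax6 span 0.

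The promoters of 3 of the 4 called genes are shown for the letters that factors of the pathway are known to bind, as the 250 bases before the start site on the gene's strand (RefSeq, GRCm38.p6). Capitals mark CACNAG, the N-box of Hes repressors, and CAGNTG, an E-box form bound by bHLH factors, searched on both strands with no overlap between matches.
Dll4 (chr2:119325534-119325783, plus strand): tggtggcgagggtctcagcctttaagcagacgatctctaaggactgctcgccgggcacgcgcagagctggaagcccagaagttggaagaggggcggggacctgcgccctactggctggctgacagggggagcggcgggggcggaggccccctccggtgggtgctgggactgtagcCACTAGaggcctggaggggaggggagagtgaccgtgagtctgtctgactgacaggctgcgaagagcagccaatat
Neurog3 (chr10:62132840-62133089, plus strand): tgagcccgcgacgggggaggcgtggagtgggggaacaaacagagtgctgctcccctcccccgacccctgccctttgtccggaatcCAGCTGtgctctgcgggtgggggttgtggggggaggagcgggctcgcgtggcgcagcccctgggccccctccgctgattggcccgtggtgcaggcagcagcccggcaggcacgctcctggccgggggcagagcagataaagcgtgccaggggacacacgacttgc
Nkx2-2 (chr2:147186403-147186652, minus strand): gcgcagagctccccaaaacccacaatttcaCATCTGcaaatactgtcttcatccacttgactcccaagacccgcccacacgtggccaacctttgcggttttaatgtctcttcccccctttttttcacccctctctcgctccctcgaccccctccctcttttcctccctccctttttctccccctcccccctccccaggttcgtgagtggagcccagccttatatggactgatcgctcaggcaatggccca

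Neurog3 held CAGCTG at 165 bases before its start, and Nkx2-2 held CATCTG, the reverse complement of an E-box, at 220 bases. Dll4 held the N-box letters CACTAG at 75 bases. Of the 2 windows of Dll1, the one nearer its expressed transcripts had neither motif, and the other, before a transcript with 0 counts in both libraries, had a pair of CAGNTG matches. Neither is printed. The Nkx2-2 window lies inside the annotated span of that gene. Of the 10 genes 9 matched the RefSeq promoter table, with 12 windows in all. Over all 32851 windows of that length, 44.82% held CAGNTG and 36.67% held CACNAG, so matches at these shares are common. The core GTGGGAA of RBPJ was in 5.415% of all windows and in 0 of these 12, and TATAAA was in 12.37% and in 0 of 12. A match describes the letters of the window and says nothing of binding.

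The 2 libraries differed in genes of the exocrine pancreas, the stomach and the Brunner's gland. The depth was close, with 44710137 counts in genes in replicate 2 and 44272208 in replicate 1. A list of 30 such genes held 0.638% of all gene TPM in replicate 2 and 12.8% in replicate 1. Zg16, also a goblet marker, was the single gene of that list called higher in replicate 2, and it had 4507.32 TPM there, most of the list's signal, against 1497.27 TPM in replicate 1. The other 19 pancreas genes and all 10 stomach and Brunner's gland genes were called higher in replicate 1. Pdx1, a homeobox factor of the duodenum and pancreas, had 0.39 TPM in replicate 2 against 41.54 TPM in replicate 1. Of all genes tested, 11.5% were called higher in replicate 2 and 14.6% in replicate 1. Markers of absorptive enterocytes summed to 27800 TPM in replicate 2 and 13040 in replicate 1, with 7 of 10 called higher in replicate 2. Their single gene called higher in replicate 1 was the phosphatase gene Alpi, at 1567.65 TPM in replicate 2 and 7153.05 in replicate 1.

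Notch1 encodes the receptor and lies at chr2:26457903-26516663 on the minus strand (mm10, as are all gene positions here, from GENCODE M21). It had 3345 counts and 9.17 TPM in replicate 2, against 4926 counts and 14.19 TPM in replicate 1. Replicate 1 was higher by 1.262-fold (95% counting interval 1.208 to 1.319, adjusted p = 5.335e-25), which did not reach the 2-fold limit. Of all genes tested, 62.68% had a larger log2 difference than this receptor. The other receptors were Notch2 (2.32 TPM in replicate 2 and 4.80 in replicate 1), Notch3 (4.42 and 7.02 TPM) and Notch4, a receptor known from endothelium (23.15 and 13.70 TPM). None of the 4 receptors was called, and their median log2 ratio was -0.41. In scaled counts, on which calls rest, Notch2 was higher in replicate 1 by 1.835-fold. The summed TPM was 39.06 in replicate 2 and 39.71 in replicate 1, as the TPM of Notch4 offset the other receptors, which were lower in replicate 2. The scaled counts of Notch4 differed little (1313 and 1403 counts, ratio 1.092), so the near-equal sums hold for the TPM scale only. Crypt stem cells depend on Notch, and of 8 of their markers 0 were called higher in replicate 2 and 1 in replicate 1. Of all genes tested, 11.5% and 14.6% were called in these directions. The markers had sums of 254.8 TPM in replicate 2 and 333.1 in replicate 1.

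Dll1, a ligand of early secretory cells, lies at chr17:15367354-15376872 on the minus strand. It had 4838 counts and 69.18 TPM in replicate 2, against 2652 counts and 39.64 TPM in replicate 1. The level was thus higher in replicate 2, by 2.128-fold in scaled counts (95% counting interval 2.029 to 2.232, adjusted p = 1.674e-224). Dll4, a ligand of secretory cells and of sprouting endothelium, lies at chr2:119325784-119335962 on the plus strand. It had 1702 counts and 12.15 TPM in replicate 2, against 992 counts and 9.14 TPM in replicate 1. The ratio of 2.002 lay on the 2-fold limit, with a counting interval on both sides of it (1.85 to 2.167, adjusted p = 1.471e-69).

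Both calls of ligands depended on the scaling. With total gene counts in place of TMM, the log2 ratio of Dll1 was 0.85 and that of Dll4 was 0.75, and neither reached 2-fold. Under that scaling the median of all genes tested was -0.239, against -0.037 with TMM, so the log2 ratios of all genes sat lower by about that shift. Of the 5 ligands 3 were called higher in replicate 2 and 0 higher in replicate 1, beside 11.5% and 14.6% of all genes tested. With 5 genes, this count is not read as a property of the ligands. The third was Dll3, a divergent ligand that acts inside the cell, at 170 and 82 counts (2.419-fold, adjusted p = 2.858e-11). Jag1 (1.05 TPM in replicate 2 and 2.27 in replicate 1) and Jag2 (3.09 and 3.54 TPM) were not called. In scaled counts Jag1 was higher in replicate 1 by 1.581-fold. Dll1 held most of the ligand signal, within a sum of 87.25 TPM in replicate 2 and 55.41 in replicate 1. Of 8 markers of endothelium 0 were called, beside 26.1% of all genes tested, with sums of 197.6 TPM in replicate 2 and 174.1 in replicate 1. Egfl7 held most of these sums, at 109.37 and 106.09 TPM. The median log2 ratio of the 8 markers was 0.08, and the widest was that of Vwf, higher in replicate 2 by 1.522-fold in scaled counts. Paneth cell markers were called higher in replicate 2 for 6 of 9 genes and in replicate 1 for 1 gene, against the same 11.5% and 14.6%. Their sums were 8098 TPM in replicate 2 and 2671 TPM in replicate 1. The alpha-defensin gene Defa3, whose near-identical copies share reads, held 3702.17 and 731.46 TPM of these. The part of Paneth cells in the ligands' difference was not tested.

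Hes1, the repressor that Notch turns on, lies at chr16:30064384-30067796 on the plus strand. It had 9752 counts and 485.43 TPM in replicate 2, against 6978 counts and 297.08 TPM in replicate 1. Scaled counts were higher in replicate 2 by 1.63-fold (95% counting interval 1.581 to 1.682, adjusted p = 6.825e-216), short of the limit for a call. At the level of transcripts the libraries differed in a non-coding form. Hes1-204, a 653-base transcript of 2 exons classed as processed transcript and not as coding, had 376.46 TPM in replicate 2 against 184.24 TPM in replicate 1. The coding form Hes1-201 had 56.06 TPM in replicate 2 and 56.85 in replicate 1, or 11.55% and 19.14% of the gene's TPM. Since 68.61% of Hes1-204 lies inside exons of Hes1-201, the split rests on how the quantifier shared out common fragments.

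With coding transcripts alone, Hes1 had 56.45 ± 0.559 TPM (SD, n = 2 libraries) and remained the highest of the 10 genes. Coding transcripts alone gave Dll1 29.35 TPM in replicate 2 and 14.62 in replicate 1, a TPM ratio of 2.008. Its other main form, Dll1-202, is a 797-base transcript with a retained intron that took 56.68% of the gene's TPM in replicate 2 and 62.23% in replicate 1. Coding Dll1 nevertheless held 80.98% and 76.54% of the gene's counts, since short transcripts weigh more in TPM. Dll4 had its coding form as its sole form in replicate 2 (12.15 TPM), while replicate 1 had 6.43 TPM of it and 2.71 TPM of the 692-base form Dll4-202. Notch1 was carried by its coding form Notch1-201 at 98.58% in replicate 2 and 90.16% in replicate 1. By the quantifier's posterior means, which average over possible assignments, these shares were 83.76% in replicate 2 and 55.79% in replicate 1, and the gene's level was 10.69 and 22.7 TPM. In replicate 1, 30.13% went to Notch1-211, a 184-base transcript with 0 counts whose usable length was set at 3.54 bases. That level thus rests in part on a transcript with no assigned counts.

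**Figure D3:**
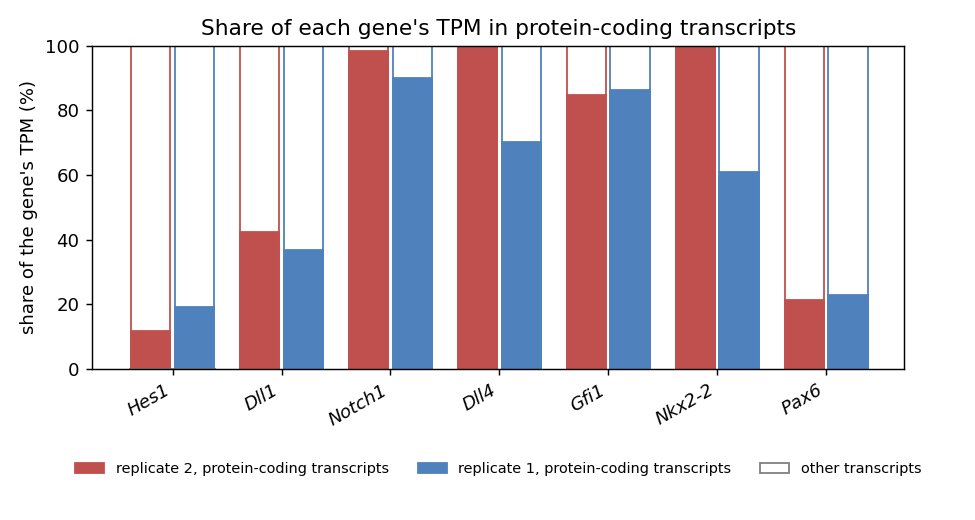
Share of each gene's TPM held by protein-coding transcripts, with replicate 2 left of replicate 1, for the 7 genes with more than 1 transcript. Hes1, Dll1 and Pax6 lie under 50% in both libraries, and the other 4 genes lie above it.

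Of the further Hes and Hey genes, Hes2, a repressor of the same family, was higher in replicate 2 at 44.10 TPM against 9.21 TPM in replicate 1 (5.188-fold, adjusted p = 4.975e-228). It was the only called gene among the 8 of 10 tested in that list, beside 26.1% of all genes tested. The list's median log2 ratio was 0.08 with TMM and -0.14 with total gene counts. Hes6, a family member that opposes Hes1, had 82.75 TPM in replicate 2 and 86.38 in replicate 1. Nrarp, a feedback inhibitor of Notch, had 47.94 and 41.00 TPM. Hes5 (18 counts in replicate 2, 1 count in replicate 1) and Hes3 (5 and 0 counts) were too low to test.

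Genes that process the receptors or their ligands were called in 3 of 25 cases, beside 26.1% of all genes tested. Neurl1b, a ubiquitin ligase of ligands, had 47.32 TPM in replicate 2 against 20.11 TPM in replicate 1 (2.262-fold, adjusted p = 2.035e-220). Dtx1, a ubiquitin ligase of the receptor, had 23.56 TPM in replicate 2 against 11.72 TPM in replicate 1 (2.403-fold, adjusted p = 4.096e-162). Both were called higher in replicate 2. Aph1c, a gamma-secretase subunit with a near-identical copy in Aph1b, had 10 counts in replicate 2 and 71 counts in replicate 1 and is uncertain for that reason. The most abundant members of the list, the gamma-secretase subunits Aph1a (499.78 and 202.99 TPM) and Psenen (155.34 and 112.56 TPM), were not called. Calls rest on scaled counts, in which Aph1a was higher in replicate 2 by 1.745-fold. In the nuclear complex, 3 of 13 genes were called, all higher in replicate 1, where 14.6% of all genes tested were called higher. These were the coactivators Maml3 (1.23 TPM in replicate 2 and 2.83 in replicate 1), Maml2 (0.56 and 1.34 TPM) and Snw1 (0.54 and 1.53 TPM). The corepressors Ctbp1 (146.00 and 135.37 TPM) and Ncor1 (62.64 and 74.66 TPM) led that list in level and were not called. Over all 55 Notch pathway genes tested, the receptor, ligands and Hes1 named above included, 6 were called higher in replicate 2 and 4 in replicate 1. The shares over all genes tested were 11.5% and 14.6%. The median log2 ratio of the 55 genes was -0.03.

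**Figure D4:**
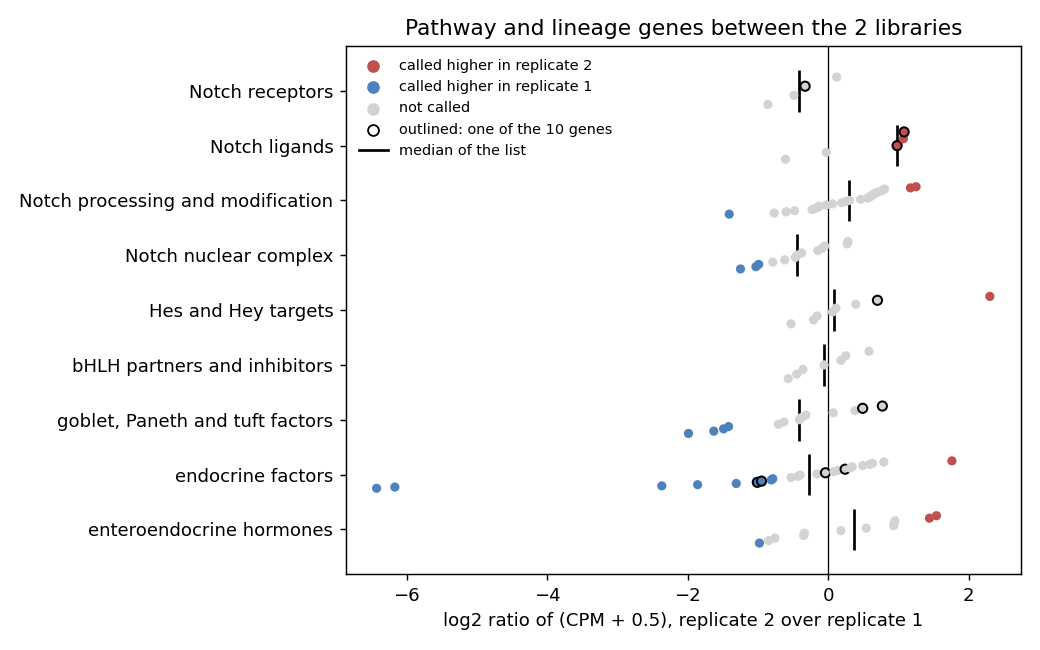
Log2 ratio of scaled CPM plus 0.5 for each tested gene of 9 lists, replicate 2 over replicate 1, with called genes in colour, the 10 genes outlined and list medians as bars. Calls use the ratio without the added 0.5, so low genes may be called inside 1 on this axis. The ligands sit highest with a median of 0.98.

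Atoh1, the factor that commits cells to the secretory lineages, lies at chr6:64729125-64731245 on the plus strand. It had 1094 counts and 14.72 TPM in replicate 2, against 741 counts and 9.53 TPM in replicate 1. Scaled counts were higher in replicate 2 by 1.722-fold (95% counting interval 1.568 to 1.893, adjusted p = 3.424e-30) and were not called. Gfi1, a zinc finger repressor, lies at chr5:107716657-107726036 on the minus strand. It had 486 counts and 7.37 TPM in replicate 2, against 396 counts and 7.56 TPM in replicate 1. Its scaled counts were higher in replicate 2 by 1.432-fold (95% counting interval 1.251 to 1.639, adjusted p = 2.295e-07), while on the TPM scale the log2 ratio was -0.03, so its direction depends on the scale.

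The transcripts of Gfi1 differed along with that. The 2860-base Gfi1-201 had 3.62 TPM in replicate 2 and 1.08 in replicate 1, and the 2639-base coding form Gfi1-202 had 0.00 and 1.40 TPM. Since 90.72% of Gfi1-202 lies inside exons of Gfi1-201, this split rests on how the quantifier shared out common fragments. By posterior means Gfi1-202 held 5.78% in replicate 2 and 8.34% in replicate 1. The 689-base Gfi1-204 had 2.62 TPM in replicate 2 and 4.05 in replicate 1. The leading form by TPM was therefore Gfi1-201 in replicate 2 and Gfi1-204 in replicate 1. In counts, Gfi1-202 (140.3) exceeded Gfi1-204 (82.92) in replicate 1. Gfi1 also acts in blood cells. Of 9 lymphocyte markers 7 were called higher in replicate 2 and none in replicate 1, beside 11.5% and 14.6% of all genes tested. Their sums were 716 TPM in replicate 2 and 266 in replicate 1, of which Ccl5 alone held 673.24 and 243.76 TPM. Ptprc was not called, at 4.19 TPM in replicate 2 and 5.84 in replicate 1. Its scaled counts were higher in replicate 2 by 1.767-fold. Of 6 granulocyte markers S100a8, S100a9 and Elane were at 0 counts in both libraries, Mpo had 3 counts in each, Cxcr2 had 8 counts in replicate 2 and 0 in replicate 1, and Csf3r had 141 and 208 counts. The part of blood cells in the levels of Gfi1 and Notch1 was not tested.

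Of the 13 goblet, Paneth and tuft factors, Atoh1 and Gfi1 included, 0 were called higher in replicate 2 and 4 higher in replicate 1, beside 11.5% and 14.6% of all genes tested, with a median log2 ratio of -0.41. Spdef, a goblet and Paneth factor, had 35.03 TPM in replicate 2 and 108.57 in replicate 1. Creb3l1, a secretory pathway factor, had 15.67 TPM in replicate 2 and 49.53 in replicate 1. Sox9, of crypt base and Paneth cells, had 14.08 and 49.30 TPM, and Foxa1, a forkhead factor of goblet and endocrine cells, had 5.17 and 23.61 TPM. Klf4 (163.08 and 172.23 TPM) and Xbp1 (117.23 and 124.88 TPM) were not called. Of the product genes, 5 of 9 goblet markers and 6 of 9 Paneth markers were called higher in replicate 2 and 1 of each list in replicate 1. Of 8 tuft markers 1 was called higher in replicate 2 and 2 in replicate 1, with sums of 48.69 TPM in replicate 2 and 88.17 in replicate 1. Several Paneth markers are alpha-defensins, whose near-identical copies share reads. Spdef, Sox9 and Foxa1 are also expressed in stomach or pancreas, whose genes were higher in replicate 1, and the part of those organs was not tested. The bHLH partners and Id inhibitors, which bind factors of the Atoh1 and Neurog3 class, had 0 of 7 genes called, led by Id1 (567.45 and 414.91 TPM) and Id3 (327.65 and 371.07 TPM).

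Neurog3, the factor that starts the endocrine programme in gut and pancreas, lies at chr10:62133090-62134763 on the plus strand. It had 115 counts and 2.19 TPM in replicate 2, against 294 counts and 5.32 TPM in replicate 1. It was higher in replicate 1 by 2.191-fold (95% counting interval 1.761 to 2.743, adjusted p = 3.221e-13). Nkx2-2, a homeobox factor of endocrine cells, lies at chr2:147177546-147194243 on the minus strand. It had 137 counts and 1.81 TPM in replicate 2, against 330 counts and 6.56 TPM in replicate 1. It was higher in replicate 1 by 2.065-fold in scaled counts (95% counting interval 1.687 to 2.539, adjusted p = 3.752e-13), and its log2 ratio on the TPM scale was -1.61.

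Part of that TPM gap lay in short transcripts. Nkx2-2-201, the main coding form, had 1.81 TPM in replicate 2 and 3.90 in replicate 1. Processed transcripts of 378 and 340 bases were given 1.37 and 1.19 TPM in replicate 1, on 10.63 and 7.37 counts, and 0 in replicate 2. By posterior means these 2 forms held 21.68% and 19.58% in replicate 1, and 6.84% and 8.88% in replicate 2. With coding transcripts only, Nkx2-2 had 1.81 TPM in replicate 2 and 4.00 in replicate 1. Neurog3 has a single transcript, and it overlaps Fam241b on the opposite strand, which had 832 counts in replicate 2 and 674 counts in replicate 1. The libraries are strand-specific per the labels.

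Neurod1, a bHLH factor downstream of Neurog3, lies at chr2:79452521-79456751 on the minus strand. It had 185 counts and 1.86 TPM in replicate 2, and 222 counts and 2.14 TPM in replicate 1. The scaled ratio was 0.972 (95% counting interval 0.796 to 1.187, adjusted p = 0.834), so a difference was not detectable at this depth. Pax6, a paired-box factor of hormone-producing cells, lies at chr2:105668900-105697364 on the plus strand. It had 43 counts and 0.94 TPM in replicate 2, and 39 counts and 0.76 TPM in replicate 1. The ratio was 1.286 (95% counting interval 0.814 to 2.037, adjusted p = 0.313), an interval that holds both equal levels and a 2-fold difference. Most of its TPM lay in Pax6-210, a processed transcript of 983 bases (79.04% in replicate 2 and 76.80% in replicate 1), and its coding forms had 0.20 and 0.17 TPM. By posterior means the share of Pax6-210 was 38.48% in replicate 2 and 33.63% in replicate 1, and the level of the gene was 1.67 and 1.43 TPM.

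The 24 endocrine factors tested of 27, the 4 above included, were called higher in replicate 1 in 9 cases and in replicate 2 in 1 case. Of all genes tested, 14.6% and 11.5% were called in these directions. The median log2 ratio of the endocrine factors was -0.28. Beside Neurog3 and Nkx2-2, those higher in replicate 1 included Isl1, a LIM homeobox factor (0.97 TPM in replicate 2 and 4.02 in replicate 1), and Pax4, which acts early in endocrine cells (0.61 and 1.89 TPM). Nkx6-3, a homeobox factor of the stomach, had 3 counts in replicate 2 and 2343 counts in replicate 1. Pdx1 is given above, and the others were Etv1 (0.61 and 2.35 TPM), Myt1 (0.24 and 0.65 TPM) and Lmx1b (0.02 and 0.23 TPM). Insm1, a zinc finger factor downstream of Neurog3, had 6.32 TPM in replicate 2 and 5.68 in replicate 1, and Fev, of serotonin cells, had 3.29 and 3.13 TPM, and neither was called.

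Of 12 enteroendocrine genes 2 were called higher in replicate 2 and 1 in replicate 1, a share close to the 26.1% of all genes tested, with sums of 1715 TPM in replicate 2 and 985.4 in replicate 1. Called higher in replicate 2 were secretin (Sct), at 747.61 TPM in replicate 2 against 283.04 TPM in replicate 1, and neurotensin (Nts), at 42 counts against 1 count. The neuropeptide gene Tac1, called higher in replicate 1, had 31 counts in replicate 2 and 95 counts in replicate 1. Cholecystokinin (Cck, 425.92 and 237.97 TPM) and chromogranin A (Chga, a protein of secretory granules, 59.51 and 119.94 TPM) were not called. In scaled counts Chga was higher in replicate 1 by 1.81-fold. The insulin genes of islet beta cells had 10 counts of Ins2 in replicate 2 and 5739 in replicate 1, and 0 counts of Ins1 in replicate 2 and 2258 in replicate 1. Of 7 islet beta cell genes 4 were tested, and only these 2 were called, both higher in replicate 1. Iapp had 35 counts in replicate 2 and 69 in replicate 1, and Mafa went the other way at 49 and 30 counts. G6pc2, Slc30a8 and Nkx6-1 were too low to test. Markers of enteric neurons and glia, some of which share endocrine factors, were called higher in replicate 1 for 4 of 10 genes. In replicate 2 the count was 0, beside 14.6% and 11.5% of all genes tested in these directions. Their sums were 35.59 TPM in replicate 2 and 40.43 in replicate 1, and Uchl1 went the other way at 21.28 and 14.07 TPM. Adult islet cells also express Nkx2-2, Neurod1, Pax6 and Isl1. The part of islet and stomach cells in the difference of Neurog3 and Nkx2-2 was not tested.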

How the data were processed

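The 10 genes and all gene lists were chosen with earlier results of these data known. Per the labels, both libraries were strand-specific, read as pairs of 76 bases, from RNA of over 200 nucleotides. Per the text files deposited beside the tables, mm10 was the genome of the alignment and GENCODE M4 the gene set. The aligner and the quantifier were not given in the sources used here. Expected counts, as deposited by the authors, count fragments of each gene or transcript without normalisation, and fragments that fit several are shared out. The TPM in the deposited tables is the authors' scaling to transcript length and library total. The deposited isoform percent is a transcript's share of its gene's TPM, per the file headers. The junction and contig lists, in mm9 coordinates, were not used here.

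Expected counts were rounded. A symbol, a gene type and a position came from GENCODE M21 for 42462 of 43346 gene rows, and transcript classes came from the same annotation. Library sizes used TMM in edgeR 4.0.16 (R 4.3.3). With 1 group there is no contrast for edgeR's quasi-likelihood test, so an exact two-sided binomial test was used, adjusted by the Benjamini-Hochberg method over genes whose mean count reached 10. The procedure was tested on simulated counts that held counting error only, with the library sizes given. That test therefore does not cover other variation between libraries. Alternatives used DESeq2 1.42.0 size factors, ERCC spike-in totals, gene totals, and TMM without pancreas, stomach and Brunner's gland genes. Others used no count filter, posterior means, a 1.5-fold limit, a pseudocount of 0.1 in place of 0.5 CPM, and TPM. TPM over coding transcripts only was added after seeing the data. Named genes are the 10 genes and, in each pathway or lineage list, the called genes and the 2 highest by mean TPM, and any further gene named was chosen after its values were seen. A gene that this rule selects is not reported here. A count of 0 allows up to 3 counts, or 0.0671 CPM in replicate 2 and 0.0678 CPM in replicate 1. Intervals of ratios follow from exact Clopper-Pearson limits on the split of a gene's counts. The binomial tests, these intervals and the floor cover counting error only, as no molecular identifiers were read. Python 3.11.15 was used with scipy 1.17.1, numpy 2.4.6 and pandas 2.3.3.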

Additional observations from a re-analysis of the deposited data

How the results depend on the processing

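The count of called genes among the 10 was 4, and it stayed at 4 with DESeq2 size factors, without the count filter and with posterior mean counts. It was 2 with ERCC totals and 2 with gene totals as library sizes, where Neurog3 and Nkx2-2 were called and Dll1 (log2 ratios 0.84 and 0.85) and Dll4 (0.75 and 0.75) were not. It was 3 with TMM computed without pancreas, stomach and Brunner's gland genes, where Dll4 missed the limit. Its log2 ratio with 0.5 CPM added was 0.98 both there and in the main setting. Calls use the ratio without that addition, which was 2.002 in the main setting and so lay on the limit. A limit of 1.5-fold called 6, with Hes1 and Atoh1 added. The median log2 ratio of the 10 genes was 0.36, against 0.17 with ERCC totals, 0.17 with gene totals and 0.08 on the TPM scale. The count of called Notch pathway genes was 10, and 26 at 1.5-fold, where 7212 of all genes were called in place of 4154. The count of lineage factors was 14, and 14 to 21 elsewhere. No member's ratio changed sign under another count scaling, and on the TPM scale the values were -0.60 for Notch1, 0.80 for Dll1, 0.39 for Dll4, 0.60 for Atoh1, -0.03 for Gfi1 and -1.61 for Nkx2-2. The cause of these shifts was not tested. No paired analysis was possible because the study has 1 group. At the 43 and 39 counts of Pax6, counting error alone spans a 2-fold difference.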
